A study of Sicyos edulis with 9 samples.

Results

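Stored fruits of the cucurbit chayote (Sicyos edulis) hold a set of transcripts that were higher at day 15 of storage than at harvest and at day 30. The 200 unigenes with the largest rise and fall of this kind are described here. A unigene is a group of assembled transcripts that stands for a gene, and the files give 57814 of them. The members were chosen on their own values in the 9 libraries, as the unigenes in which every library of day 15 was above every library of the other stages and in which the smaller of the rise and the fall was largest. Rise and fall are differences between stage means of log2(FPKM + 1), where FPKM is the number of fragments scaled to transcript length and to the size of the library. Unigenes with a mean of 800 FPKM or more (74) and those in 2 supplementary lists of genes that the study selected (165) were not eligible. These lists, 1 of structural genes with transcription factors and 1 of transcription factors, are not the list of flavonoid structural genes from which the names of members come, whose genes were eligible unless they were also on 1 of these 2. Of the 57814 unigenes, 3243 had the ordering, 3188 of these were eligible and 200 were taken.

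The study followed flavonoids and their genes in stored chayote fruits. Wild-type fruits came from optimal harvest (S1), from day 15 of storage (S2) and from day 30 of storage (S3), and each stage has 3 libraries described as independent biological replicates. The stages have no other treatment, the sources do not say how many fruits make up a library, and the sources differ on the temperature of storage, which is given as room temperature in the series text and in parts of the paper and as a cooler temperature in the paper's methods. No source describes the replicate numbers as pairing fruits across stages, and none says if all stages were sequenced at once. The labels name whole fruit as the tissue. As no annotation of the unigenes was at hand, this was not checked against marker genes, and most members stay without a name or role.

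In plants, phenylalanine ammonia-lyase (PAL) turns phenylalanine into cinnamic acid and so opens the phenylpropanoid pathway, from which flavonoids, lignin and many defence compounds are made. Chalcone synthase (CHS) leads from this pathway into the flavonoids. UDP-glycosyltransferases (UGTs) move a sugar from a UDP-sugar onto small molecules such as flavonoids, which changes their solubility and storage. Among the members, 5 carry such names through their values in the paper's list of flavonoid structural genes: the PALs SePAL5 and SePAL9, and the UGTs SeUGT20, SeUGT28 and SeUGT30.

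The total FPKM of a library ranged from 801066 to 914583, and the relative depth, estimated from the steps of 1 read in low values, ranged from 0.707 to 1.29 times that of S1 replicate 2. Mapped reads per library, which the paper reports, were not used for this estimate and give other ratios. No counts per unigene are given, so no counting interval was computed. The 200 members together took 0.345%, 0.595% and 0.64% of the FPKM total in the S1 libraries, 2.93%, 2.8% and 2.68% in the S2 libraries, and 0.26%, 0.2% and 0.232% in the S3 libraries. The share in S2 was thus above that of all other libraries, as the rule requires of each member. In bulk tissue, fewer cells of a type and less RNA per cell cannot be told apart.

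**Figure D1:**
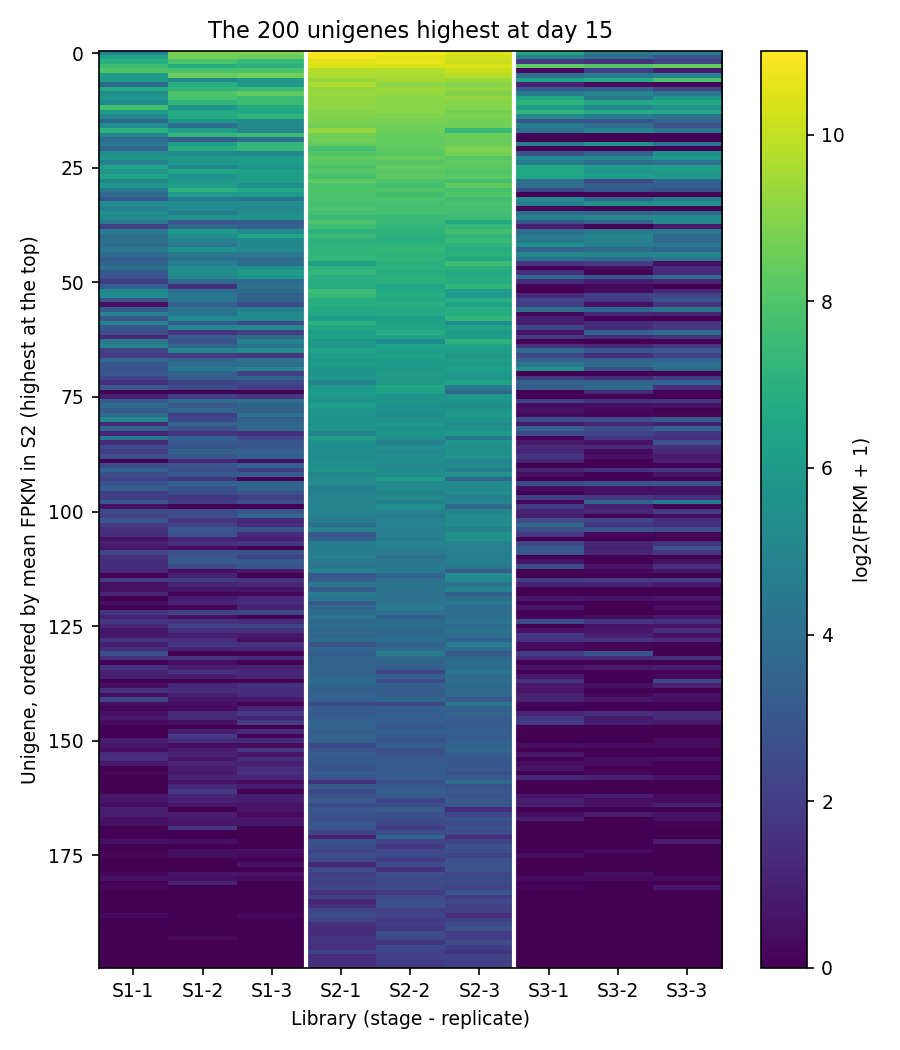
Heat map of the 200 members in the 9 libraries, with log2(FPKM + 1) as the colour and 1 row per unigene, ordered by mean FPKM in S2. The 3 columns of S2 are the brightest in every row, as the rule fixes, and the lower rows are dark in all S1 and S3 libraries.

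The members covered a wide range of levels at day 15. The mean FPKM in S2 had a lowest value of 2.77, a median of 29.0 and a highest of 1744 over the 200 members. It was under 10 in 60 members, between 10 and 100 in 82, between 100 and 1000 in 54, and 1000 or more in 4. In the same members the stage mean had a median of 3.23 FPKM in S1 (0 to 307.2) and of 0.708 FPKM in S3 (0 to 302.8). The rise between S1 and S2 had a median of 2.36 log2 units (1.887 to 5.41), and the difference S3 minus S2 a median of -3.15 (-8.81 to -1.89). The fall was larger than the rise in 139 members, the rise was larger in 40, and both were equal in the 21 that were at 0 FPKM in all S1 and S3 libraries. A fall larger than the rise is the same as a lower mean of log2(FPKM + 1) in S3 than in S1. Such a lower mean was less frequent in the members (69.5%) than in the tested unigenes with the same ordering that were not taken. Among those with at least 1 FPKM in an S1 or S3 library, the shares were nearly the same, 76.7% and 77.5%. That split was chosen after the values were seen. A lower mean in S3 was more frequent in the members than over all unigenes tested.

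These steps chose the members, so they carry no test. Limma called 186 members higher in S2 than in S1 and 197 lower in S3 than in S2, where the same calls covered 7.24% and 23.2% of the 30201 unigenes tested, and nothing is read from these counts. The ordering itself, with every S2 library above every S1 and S3 library, was met by 8.63% of the unigenes tested. At the threshold of 1.887 log2 units, the last member taken was TRINITY_DN6323_c0_g1, with 0.42, 0.43 and 0.3 FPKM in S1, 3.4, 4.43 and 4.59 in S2, and 0.29, 0.22 and 0.24 in S3. The first unigene left out was TRINITY_DN1791_c0_g1, with a smaller step of 1.886 and 5.67, 13.63 and 8.45 FPKM in S1, 36.48, 33.31 and 35.22 in S2, and 13.14, 6.41 and 6.2 in S3. Both sides of the threshold thus hold the same shape at different levels. A further 17 unigenes beyond the threshold were not eligible, 6 for their level and 11 for being on the transcription factor list.

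**Figure D2:**
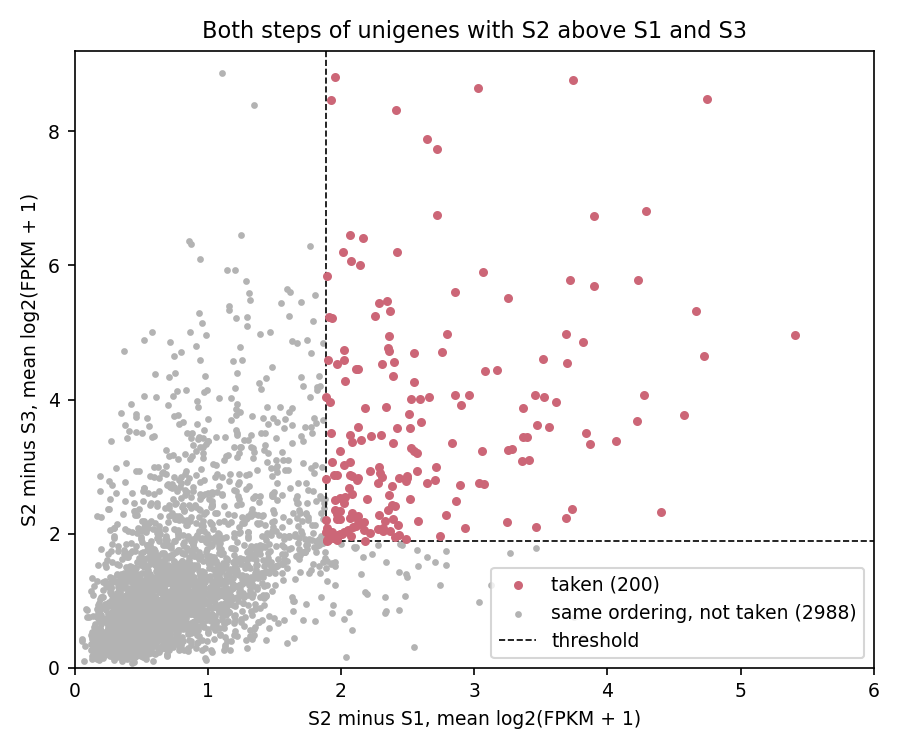
Rise (S2 minus S1, horizontal axis) and fall (S2 minus S3, vertical axis) of the 3188 eligible unigenes, in differences of mean log2(FPKM + 1), with the 200 members in red, the 2988 others in grey and the threshold of 1.887 as dashed lines. The fall was the larger step in 139 of the members, which are those with a lower mean log2(FPKM + 1) in S3 than in S1.

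The rule selects for a separation of S2 from the other stages, so its width is given only as a description. In the 179 members with a value above 0 in S1 or S3, the lowest S2 library was a median of 3.53 times the highest library of the other stages, and at least 2 times in 149 of them. The smallest such ratio was 1.12. The highest library outside S2 belonged to S1 in 138 of these members and to S3 in 41. Within S2, the highest library was a median of 1.4 times the lowest, under 1.5 times in 116 members and at least 2 times in 53.

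The PAL and UGT members are the ones with a known role. SePAL5 (TRINITY_DN3127_c2_g2) had 0.57, 0.29 and 0.26 FPKM in S1, 4.47, 9.13 and 10.3 in S2, and 0.31, 0.27 and 0.23 in S3. SePAL9 (TRINITY_DN5659_c0_g1) had 1.72, 5.55 and 1.56 FPKM in S1, 6.62, 26.57 and 47.8 in S2, and 2.6, 0.19 and 0.16 in S3. Both PALs were thus low in S1 and S3, and S2 replicate 1 of SePAL9 was close to its highest S1 library. The smaller step was 2.65 log2 units in SePAL5 and 2.60 in SePAL9, ranks 54 and 56 of the 200.

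SeUGT20 (TRINITY_DN10833_c0_g1) was the highest-ranked named member, at rank 25, with 1.42, 2.12 and 1.69 FPKM in S1, 28.25, 50.85 and 61.76 in S2, and 4.32, 3.83 and 2.32 in S3. SeUGT28 (TRINITY_DN3777_c0_g1) had 2.83, 3.63 and 1.75 FPKM in S1, 14.94, 28.63 and 38.87 in S2, and 12.18, 2.11 and 1.63 in S3. SeUGT30 (TRINITY_DN6111_c0_g2) had 2.94, 3.03 and 2.12 FPKM in S1, 7.49, 15.63 and 31.32 in S2, and 3.1, 2.86 and 3.06 in S3. The S3 libraries of SeUGT20 were all above its S1 libraries, while those of SeUGT28 and SeUGT30 overlapped with S1, and S3 replicate 1 of SeUGT28 stood nearer to S2 than to the other S3 libraries. The means in S2 were 47.0 ± 17.1 FPKM for SeUGT20, 27.5 ± 12 for SeUGT28 and 18.2 ± 12.1 for SeUGT30 (SD, n = 3 each).

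**Figure D3:**
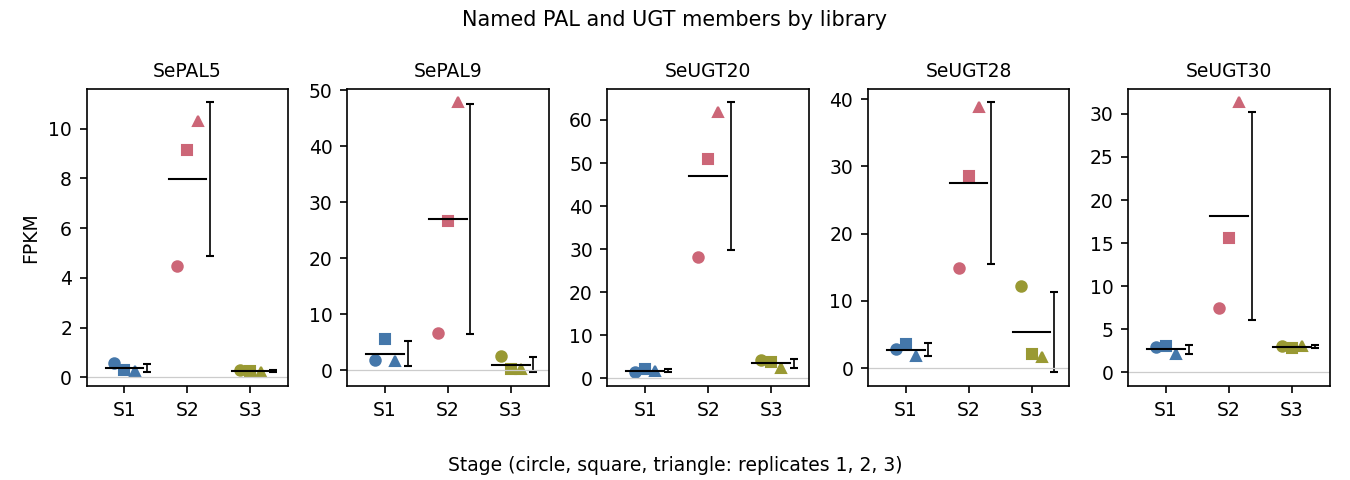
FPKM of the 5 named members by stage, with 1 symbol per replicate, the mean as a line and the SD (n = 3) as a bar beside it, each panel on its own axis from 0. In all 5 panels the S2 libraries are above all others, and replicate 1 (circle) is the lowest of S2.

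The 3 libraries of S2 did not stand in the same order in all members, but did so in the named ones. In all 5 named members, S2 replicate 1 was the lowest and S2 replicate 3 the highest, with replicate 3 at least 2 times replicate 1. This order was seen after the values were known. The order held in 46 of the 200 members (23%), in 26 of the 66 tested enzymes of the structural gene list (39.4%) and in 21.4% of the unigenes tested. Replicate 3 was at least 2 times replicate 1 in 24 members (12%), 16 of the 66 enzymes (24.2%) and 9.5% of the unigenes tested. In the same 5 members S3 replicate 1 was the highest of S3, which together with a lowest S2 replicate 1 was found in 27 of the 200 members (13.5%), 18 of the 66 enzymes (27.3%) and 16.1% of the unigenes tested.

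The structural gene list places the named members among their families. The study made this list from genes it called different between stages in these same libraries. That choice favours a separation of stages, so nothing is read from a share above that of all unigenes tested. The list is no independent evidence of a direction either. It was matched through its 9 values, since it gives no identifiers. Of its 95 entries, 72 had the values of a unigene under the stages of the files, and 66 of these were tested. S2 was above all S1 and S3 libraries in 14 of the 66 (21.2%), against 8.63% of the unigenes tested. Beyond the threshold of 1.887 were 5 of the 66, against 217 of the 30201 unigenes tested (0.719%). The 66 leave out 19 entries that matched a unigene only with stages exchanged. None of these 19 had the ordering under the stages of the files, so both shares would be lower with the tested ones counted.

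The family counts cover only entries matched under the stages of the files. By family, the ordering was found in 4 of 7 such tested PALs, in the single such CHS and in 9 of 43 UGTs. None of the 8 tested 4-coumarate-CoA ligases (4CL, which activate the cinnamic acids), the 2 flavone synthases I, the 2 flavonol synthases or the 3 isoflavone reductases had it. Entries that matched only with stages exchanged are left out of these counts, and none of them had the ordering. Tested ones among them are SeCHS2, the flavonol synthase SeFLS1 and further PALs, 4CLs, isoflavone reductases and UGTs. The cinnamate hydroxylase SeC4H2, the dihydroflavonol reductase SeDFR and the flavanone hydroxylase SeF3H are among them as well. The other PALs with the ordering were SePAL11 and SePAL13, with smaller steps of 0.75 and 1.03 log2 units. SeCHS1 (TRINITY_DN9531_c1_g2) had 2.89, 2.57 and 2.86 FPKM in S1, 11.07, 11.91 and 5.95 in S2, and 2.74, 4.21 and 3.22 in S3, a smaller step of 1.24. Another list of the study gives the name SeCHS1 to a different unigene, TRINITY_DN6851_c0_g2. That unigene is SeCHS2 in the list used here and did not have the ordering. Among the UGTs that were not taken, SeUGT16 came nearest to the threshold at 1.75 log2 units, with 138.09, 129.01 and 153.2 FPKM in S1, 454.51, 457.67 and 508.54 in S2, and 90.38, 89.39 and 120.62 in S3. SeUGT16 was thus more abundant than the 3 UGT members in every library, with a smaller relative change. Se4CL11, singled out after its values were seen, had a smaller step of 1.88 but no full separation, as its S2 replicate 1 had 14.11 FPKM and its S3 replicate 1 had 15.02.

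The 19 entries left out above had the values of a unigene with stages exchanged. Under the stages of the files, used here throughout, none of the 19 had S2 above the other stages. Under the stages of the list, 9 of them would, and 4 would pass the threshold (SePAL1, Se4CL1, SeUGT6 and SeUGT17). With these, 9 enzymes of the list would be beyond the threshold in place of 5.

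The transcription factor list was not eligible for the set but shows the same ordering in part. Of its 136 tested unigenes, 28 (20.6%) had every S2 library above the others, against 8.63% of all unigenes tested. Beyond the threshold were 11 of the 136, against 217 of the 30201 unigenes tested (0.719%). The largest smaller step, 4.27 log2 units, was in TRINITY_DN2724_c0_g1, with 2.98, 1.04 and 14.65 FPKM in S1, 39.99, 179.54 and 121.68 in S2, and 2.32, 2.19 and 1.27 in S3. With both supplementary lists allowed, the rule would have kept 189 of the 200 members. This list, too, was made by the study from genes it called different between stages in these same libraries, so nothing is read from these shares.

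The members with the largest steps have no name. TRINITY_DN34659_c0_g1, at rank 1 with a smaller step of 4.96 log2 units, was listed at 0 in all S1 libraries, had 70.48, 80.68 and 12.07 FPKM in S2, and had 0, 1.52 and 0 in S3. TRINITY_DN34917_c0_g1, at rank 2 with 4.75, had 13.37, 8.62 and 16.19 FPKM in S1, 388.42, 332.35 and 353.73 in S2, and was listed at 0 in all S3 libraries. The S2 libraries of the first differed more among themselves than those of the second.

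The 4 members with a mean of at least 1000 FPKM in S2 differed in what remained in S3. TRINITY_DN568_c0_g1, the highest, had 28.68, 435.45 and 457.57 FPKM in S1, 2059.34, 1732.91 and 1440.6 in S2, and 89.23, 19.65 and 27.88 in S3. TRINITY_DN29197_c0_g1 had 83.04, 399.34 and 349.36 FPKM in S1, 1847.58, 1499.06 and 1221.9 in S2, and 25.03, 13.85 and 5.96 in S3. In both, S1 replicate 1 stood far below the other S1 libraries, and S2 replicates stood in the order opposite to that of the named enzymes. TRINITY_DN10018_c0_g1 had 127.66, 237.11 and 158.35 FPKM in S1, 1465.03, 1592.25 and 1127.28 in S2, and 2.32, 1.9 and 3.25 in S3. TRINITY_DN31026_c0_g1 had 191.53, 111.4 and 134.53 FPKM in S1, 1390.15, 1305.22 and 1374.05 in S2, and 307.71, 260.75 and 340.06 in S3. The S3 libraries were all below S1 in TRINITY_DN10018_c0_g1 and all above S1 in TRINITY_DN31026_c0_g1.

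A value of 0 outside S2 was common among the members. All 3 S3 libraries were at 0 FPKM in 50 of the 200 members (25%), against 5.86% of the unigenes tested, and all 3 S1 libraries in 23 members (11.5%), against 2.83%. In 29 members only S3 was at 0 throughout, in 2 members only S1 (TRINITY_DN34659_c0_g1 and TRINITY_DN13427_c0_g1), and in 21 members both were. The 21 had low means in S2, from 2.77 to 8.71 FPKM with a median of 3.49. The unigenes tested include 49 that were at 0 in all libraries of S1 and S3. All 200 members passed the filter of at least 1 FPKM in at least 3 libraries, and 41 passed it through the S2 libraries alone. Since the rule favours unigenes with low values outside S2, the 0 values are described and not tested.

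Whether the members came back to their harvest level by day 30 was compared between S3 and S1, the contrast whose direction the rule does not fix. Limma, with Benjamini-Hochberg adjustment over the 30201 unigenes, called 5 members higher in S3 (2.5%) and 68 lower (34%), while 127 did not pass the adjusted p of 0.05. Over all unigenes tested, 22.1% were called higher and 25.4% lower. The 2352 tested unigenes with the same ordering that were not taken had 113 called higher (4.8%) and 921 called lower (39.2%). The median difference S3 minus S1 was -0.51 log2 units in the members, -0.37 in those others and -0.05 over all unigenes tested. These shares depend on the 41 members under 1 FPKM in every S1 and S3 library, none of which was called. Among the other 159 members, 3.14% were higher and 42.8% lower, against 5.31% and 42.6% of the 2127 others with the same ordering at that level, and the members' median was -0.93. This split was added after the values were seen. The S1 and S3 values entered the rule as well, and low values in both favour a member, so that these shares are given as a description. The p values rest on the spread between libraries within a stage, pooled over all 3 stages (S2 included) and moderated by limma over the unigenes tested.

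**Figure D4:**
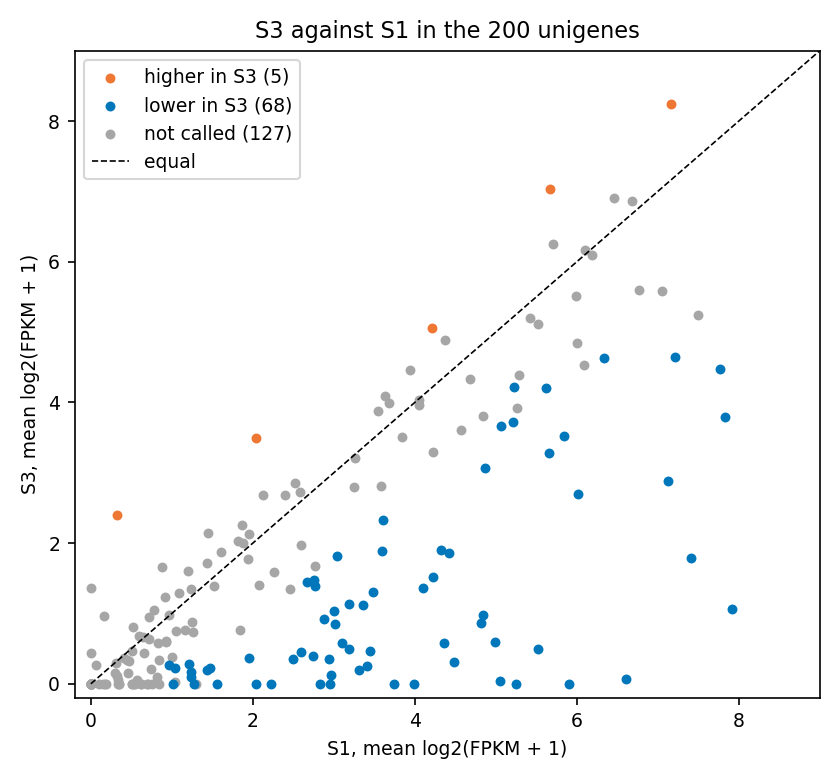
Mean log2(FPKM + 1) of the 200 members in S3 (vertical axis) and S1 (horizontal axis), coloured by the limma call at an adjusted p of 0.05, with a dashed line where both are equal. Most of the called members, 68 of 73, lie below the line, many of them near 0 on the S3 axis.

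The members called lower in S3 had differences from -6.85 to -0.7 log2 units (median -2.33), and 11 of the 68 were listed at 0 in all S3 libraries. TRINITY_DN14126_c0_g2 had 0.2, 3.12 and 0.82 FPKM in S3, against 258.46, 229.63 and 232.09 in S1, with 844.77, 858.67 and 1112.69 in S2 between them. Its difference S3 minus S1 was -6.85 ± 0.38 (SE), with a limma adjusted p of 5.41e-06. TRINITY_DN9762_c0_g3 had 0.12, 0 and 0.04 FPKM in S3, against 30.34, 153.34 and 191.63 in S1, a difference of -6.54 ± 0.58 (SE) with a limma adjusted p of 5.42e-05. Both were close to 0 at day 30, although their S1 levels were far from low. TRINITY_DN34917_c0_g1, at 0 in S3, was called lower as well (limma adjusted p = 4.09e-06), as were TRINITY_DN29197_c0_g1 (-4.03 ± 0.64, adjusted p = 0.00114) and TRINITY_DN10018_c0_g1 (-5.62 ± 0.25, adjusted p = 1.66e-06).

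The 5 members called higher in S3 had differences of 0.84 to 2.07 log2 units, and in each of them all S3 libraries were above all S1 libraries. TRINITY_DN36463_c0_g1 had 8.69, 1.17 and 5.96 FPKM in S3, against 0.53, 0.28 and 0 in S1, a difference of 2.07 ± 0.48 (SE, limma adjusted p = 0.00749). TRINITY_DN28371_c0_g1 had 10.71, 10.23 and 9.94 FPKM in S3, against 1.91, 3.45 and 4.4 in S1, a difference of 1.45 ± 0.35 (SE, limma adjusted p = 0.00858). The first varied more between its S3 libraries than the second. The others were TRINITY_DN1358_c1_g1 (1.37), TRINITY_DN31026_c0_g1 (1.08) and TRINITY_DN1288_c0_g1 (0.84), with limma adjusted p of 0.0238, 0.00249 and 0.00151. All 5 remained below their S2 level in S3, as the rule requires.

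None of the named enzymes passed the test of S3 against S1. The difference was 0.69 ± 0.30 (SE) log2 units in SeUGT20 (TRINITY_DN10833_c0_g1, limma adjusted p = 0.0876), 0.38 ± 0.60 in SeUGT28 (TRINITY_DN3777_c0_g1, adjusted p = 0.635) and 0.13 ± 0.41 in SeUGT30 (TRINITY_DN6111_c0_g2, adjusted p = 0.827). It was -0.11 ± 0.28 in SePAL5 (TRINITY_DN3127_c2_g2, limma adjusted p = 0.787) and -1.07 ± 0.74 in SePAL9 (TRINITY_DN5659_c0_g1, adjusted p = 0.267). A missed threshold does not show that day 30 equals harvest in these genes. Single libraries moved these differences. SePAL9 (TRINITY_DN5659_c0_g1) was at -0.63 without S1 replicate 2 and at -1.60 without S3 replicate 1. SePAL5 (TRINITY_DN3127_c2_g2) was at -0.006 without S1 replicate 1 and at -0.16 without S1 replicate 3, and SeUGT30 (TRINITY_DN6111_c0_g2) at 0.0074 without S1 replicate 3 and at 0.19 without S1 replicate 2. SeUGT28 was at 0.18 without S1 replicate 3, at 0.69 and 0.81 without S3 replicates 2 and 3, and at -0.35 without S3 replicate 1 (limma adjusted p = 0.498). SeUGT20 passed the threshold without S2 replicate 1 (adjusted p = 0.0348) and without S3 replicate 3 (adjusted p = 0.0481), as well as with a pseudocount of 0.01 (adjusted p = 0.0499), and over all alternatives its limma adjusted p ranged from 0.0348 to 0.215.

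S1 replicate 1 was often the lowest library of S1, in the members and in other unigenes with the ordering. It was the lowest in 104 of 166 members with 3 distinct values (62.7%). The share was 60.9% in those with the same ordering that were not taken and 44.2% in the unigenes tested. Among members with at least 1 FPKM in an S1 library, S1 replicate 1 was at most 1/2 of the next S1 library in 61 of 154 (39.6%), against 14% of such unigenes tested and 11.3% of those with the same ordering that were not taken. The same held for S1 replicate 2 in 8 members and for S1 replicate 3 in 7. The median SD of log2(FPKM + 1) in S1 was 0.477 in the members and 0.202 in those with the same ordering that were not taken. Summed over the members, S1 replicates 2 and 3 had 5268 and 5653 FPKM and S1 replicate 1 had 2995. The relative depth of S1 replicate 1 was 0.797, close to the 0.782 of S1 replicate 3. The rule used these values. Without S1 replicate 1 the rule took 168 of the 200 members again, as many as without S1 replicate 3 (168), and it took 176 without S1 replicate 2. Without S1 replicate 1, 83 members in place of 68 were called lower in S3 than in S1, against 62 without either of the other S1 libraries. TRINITY_DN568_c0_g1, which was not called with all libraries (-2.26 ± 1.01, limma adjusted p = 0.0979), was called without it (-3.57, adjusted p = 0.00121), and so was TRINITY_DN6801_c0_g1 (-0.66 ± 0.68, limma adjusted p = 0.455 with all libraries, and -1.47, adjusted p = 0.0261 without it).

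The members varied more between replicates than other unigenes. The median SD of log2(FPKM + 1) over the 3 libraries of a stage in the members was 0.477 (S1), 0.246 (S2) and 0.28 (S3), against 0.297, 0.152 and 0.238 for the unigenes tested. In S2, where the members were highest, the leading library differed between members, and S2 replicate 3 was the highest in 84 members, replicate 1 in 58 and replicate 2 in 57, among 199 with 3 distinct values. In S3, replicate 1 was the highest in 69 of 139 members with 3 distinct values (49.6%), against 38.7% of the unigenes tested.

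To read the day 15 peak in libraries that the rule had not used, the rule was applied to 2 replicates per stage and the remaining replicate of each stage was looked at. The 200 unigenes taken without replicate 1 had S2 highest in the left-out libraries in 153 cases, those taken without replicate 2 in 164, and those taken without replicate 3 in 159. Over all unigenes tested, 29.7%, 26.7% and 25.0% had S2 highest in replicates 1, 2 and 3 alone. These shares are no matched reference. The rule took its 200 with no minimum level, while the unigenes tested had passed the filter, and the levels of the 2 groups differ. The left-out libraries were grouped by replicate number, which no source describes as a pairing. The smaller step had a median of 1.70, 1.92 and 1.80 log2 units in the left-out libraries, where the libraries that chose the unigenes gave 2.33, 2.44 and 2.41. Of the 200 taken each time, 136, 148 and 138 were also among the members.

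The peak was found in the left-out libraries more often in unigenes that were abundant in S2. Among unigenes with a mean of at least 10 FPKM in the S2 libraries used, S2 was highest in the left-out libraries in 104 of 108, 126 of 126 and 119 of 123. Under 10 FPKM it was so in 49 of 92, 38 of 74 and 40 of 77, and 37, 31 and 37 of the 200 were at 0 in the left-out S2 library. This split was added after the values were seen. With a pseudocount of 0.1 in the rule, which gives low unigenes more weight, the counts of 200 were 76, 86 and 83, and the rule shared 84 unigenes with the members. With a pseudocount of 5 they were 189, 199 and 197, and 132 were shared.

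**Figure D5:**
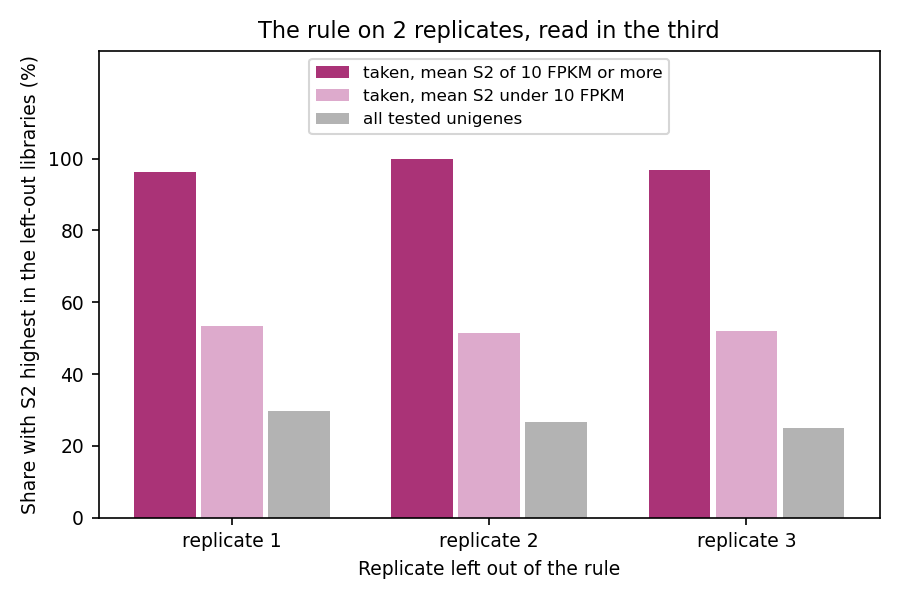
Share of unigenes with S2 highest in the replicate left out of the rule, for those taken with a mean S2 of at least 10 FPKM, those taken with less, and all unigenes tested, for replicates 1, 2 and 3. The first share is at 96.3% to 100%, the second at 51.4% to 53.3% and the last at 25.0% to 29.7%. The last is not matched in level to the others.

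The 200 members come from 194 read clusters of the assembly, which group unigenes that share sequence in their reads. Only 6 clusters held 2 members each, and none held more. Reads of unigenes in a cluster may be split between them, which makes their levels less certain. The cluster with the highest-ranked member of these held TRINITY_DN6801_c0_g1, with 0.36, 8.68 and 4.64 FPKM in S1, 120.5, 118.9 and 81.67 in S2, and 3.13, 0.46 and 2.12 in S3, and TRINITY_DN6801_c0_g2, with 1.63, 2.46 and 5.67 in S2 and 0 elsewhere. The next held TRINITY_DN1944_c0_g1, with 9.25, 1.77 and 15.62 FPKM in S1, 112.8, 88.13 and 154.46 in S2, and 0.09, 0.19 and 0 in S3, and TRINITY_DN1944_c0_g2, with 1.95, 2.91 and 3.44 in S2 and 0 elsewhere. In both of these pairs 1 unigene was abundant in S2 and the other was near the floor of the rule. Others of the 6 clusters held 2 members at similar levels in S2.

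Neighbours in these clusters that are not members had the ordering in part. Of 169 such neighbours, 109 were tested, and 30 of these (27.5%) had every S2 library above the other stages, against 8.63% of the unigenes tested. Neighbours may share reads with a member, so that these values are not independent. SePAL9 shares its cluster with SePAL3, SePAL6 and SePAL10, none of which had the ordering. SePAL6 (TRINITY_DN5659_c0_g4), the most abundant of these, had 5.25, 10.94 and 10.33 FPKM in S1, 3.45, 16.97 and 6.7 in S2, and 6.35, 0.36 and 1.37 in S3. The list gives these 3 genes under other stages than the files. No member's 9 values stood for a second unigene.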

How the data were processed

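RNA of chayote fruits at 3 storage stages was measured in 9 libraries. The authors deposited FPKM for 57814 unigenes with 2 decimals, from reads filtered with fastp per the submitters' processing notes. Neither mapper nor counting tool is named in the sources used here. FPKM are not counts, so no count test was run. In the file of S1 replicate 1, 8 columns without a name were not used. The members and lists were chosen with earlier results of these data known.

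All 9 libraries were fitted with limma 3.58.1 in R 4.3.3 (lmFit, eBayes with trend) on log2(FPKM + 1) over the 30201 unigenes with at least 1 FPKM in at least 3 libraries, with Benjamini-Hochberg adjustment over all of them. Folds are differences on this scale and understate the change of low unigenes. Python 3.11.15, numpy 2.4.6, pandas 2.3.3 and matplotlib 3.10.9 were used for the rest.

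The text names every member with a name in the paper's lists, the 2 members with the largest smaller step, the 2 highest in S2, the 2 members called in each direction for S3 against S1 with the largest fold and separate libraries, the unigenes on both sides of the threshold, and up to 4 members of the read clusters with the most members. The other members with at least 1000 FPKM in S2, at 0 in S1 alone or called higher in S3 were named after their values were seen. Names from the structural gene list rest on equality of all 9 values. Another list of the study numbers some of its genes otherwise, such as SeUGT6 as SeUGT2 and SeUGT17 as SeUGT3.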

Additional observations from a re-analysis of the deposited data

How the results depend on the processing

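The counts of members called in S3 against S1 (5 higher, 68 lower) stayed within 1.5 times under every alternative run. These were other scalings (median of ratios, quantile), other filters (none, or 5 FPKM), pseudocounts of 0.1 and 0.01, plain limma without trend, a fit of the S1 and S3 libraries alone, the replicate block, leaving out each library, a minimum log2 fold of 1 and a stricter adjusted p of 0.01. With the replicate block, 6 members were higher and 71 lower. The replicate numbers are not described as paired and same-numbered libraries deviated with correlations of -0.138 to 0.042. With a library left out, 4 to 7 members were higher and 61 to 83 lower, and the rule again took 152 to 192 of the 200. In place of 200, the rule shared 84 unigenes with a pseudocount of 0.1 and 132 with one of 5. The left-out replicate counts of 153, 164 and 159 became 76, 86 and 83 with a pseudocount of 0.1 in the rule. With that pseudocount the 200 taken from all 9 libraries had a median S2 mean of 2.82 FPKM, against 29.0. The median S3 minus S1 difference of the members was -1.07 with a pseudocount of 0.1, against -0.51.

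Of the named members' alternatives, 272 kept direction and side of the threshold, 5 passed it newly, 2 reversed and 1 was at 0 (TRINITY_DN34659_c0_g1 without S3 replicate 2, where only that library of S3 had a value). Reversed were SePAL5 (TRINITY_DN3127_c2_g2) at 0.026 under quantile normalization and SeUGT28 (TRINITY_DN3777_c0_g1) at -0.35 without S3 replicate 1 (up to 0.81 with another library left out), neither called. The cause of these changes was not tested. No counts per unigene are given, so what depth limits was not measured.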
